A study of Mus musculus with 10 samples.

Results

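The Bex (brain expressed, X-linked) genes Bex1, Bex2, Bex3 and Bex4 were followed through mouse intestinal organoids and colonic crypts profiled by single-cell RNA sequencing. The family was chosen by the counts of Bex4: in earlier results of these data it had the largest rise of any gene in Hyper-organoids, and so the values of Bex4 in Hyper-organoids describe the choice and carry no test. These 4 genes were all of the members looked for among the 31053 genes of the count matrices, and all 4 passed the filter on low counts, Bex4 only through the Hyper-organoid libraries. Bex1, Bex2 and Bex3 were read from the same libraries and tested across all genes.

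The study asked how a medium made for hyperplastic growth, and the pair of chromatin inhibitors in it, alter the cells of small intestinal organoids. The ENR-organoids, in 3 libraries, were kept in medium with Noggin, EGF and the Wnt agonist R-Spondin 1. The Hyper-organoids, also in 3 libraries, were kept in 8 components: FGF2, EGF, R-Spondin 1 as conditioned medium, LDN193189 (which blocks BMP receptors), GSK-3 Inhibitor XV, the kinase inhibitor Pexmetinib, VPA (which blocks histone deacetylases) and EPZ6438 (which blocks the histone methyltransferase Ezh2). In the 2 libraries of -VE-organoids both VPA and EPZ6438 were absent from that medium. The other 2 libraries came from crypts of a normal colon and of a colon after dextran sulfate sodium (DSS), which injures the epithelium. All organoids came from crypts of the proximal small intestine in Matrigel, and the labels named no transgene, deletion, strain or sex for them. The methods name C57BL/6 mice and a cross of Lgr5-EGFP-IRES-creERT2 (a Cre driven from the stem cell gene Lgr5) with a Rosa26 tdTomato reporter, neither of which the labels tie to these libraries. Crypt donors were mice between 6 and 12 weeks of age by the study's methods, and female mice of 8 weeks were named for the colitis model. Within a group the libraries differed in passage (2, 7 and 3 for ENR-organoids, 1 and 6 for -VE-organoids, and 1, 6 and 3 for Hyper-organoids) and in culture series. In 2 series the Hyper-organoids were derived from ENR-organoids and in the other from primary crypts, and whether the libraries stand for separate animals was not stated, so the p-values measure the spread between these libraries.

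Bex proteins are small, mostly disordered proteins found in placental mammals, abundant in neurons and neuroendocrine cells and low in most adult epithelia. They are adaptors rather than enzymes. Bex1 has been linked to cell cycle exit and to regeneration of nerve and muscle, Bex2 to complexes of LIM-domain transcription regulators, Bex3 binds the neurotrophin receptor Ngfr and is tied to cell death, and Bex4 associates with microtubules. Bex proteins also bind the ubiquitin ligase adaptor Fem1b. Their closest kin are the Tceal genes, small relatives of a transcription elongation factor, which lie among them on the X chromosome. In the gut, enteroendocrine cells, the hormone-releasing cells of the epithelium, are the class closest to neurons in their secretory machinery.

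Kept cells numbered 25204, of which 22139 were organoid cells, and any pair of libraries shared at most 5 barcodes. The median depth was 38173 to 50651 unique molecular identifiers (UMIs) per cell in organoids, and 18374 and 16051 in the normal and DSS colon. The deposited enteroendocrine class carried a defining marker, the granule gene Chgb, at 5430.4 to 20471.7 CPM (counts per 1000000 UMIs of the kept cells). In the stem class of the same organoid libraries Chgb was at 1.71 to 6.59 CPM. The 6 organoid libraries of series 2 and 6 held both Xist (484.4 to 617.6 CPM) and transcripts of Y-linked genes, so cells of both sexes were present in them, and the DSS colon held Y-linked transcripts (122.3 CPM) with Xist at 0.0926 CPM while the normal colon held Xist (476.9 CPM) and none from the Y.

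On GRCm38 the family occupies 205.4 kb of chromosome X, in the order Bex2 (136066564 to 136068236, minus strand), Bex4 (136138996 to 136140443, plus strand), Bex1 (136213972 to 136215513, minus strand) and Bex3 (136270253 to 136271978, plus strand). Nxf3, Tceal5, Tceal7, Tceal8 and Tceal9 are the other protein-coding genes in that span. Each Bex gene has 3 exons and keeps its whole coding sequence in 1 of them. The 250 bases before each start are shown because they separate the family into 2 pairs. They are RefSeq sequences of GRCm38.p6, written 5′ to 3′ on the strand of the gene, with capitals marking the letters of 3 common motifs. The GC box is GGGCGG. The CCAAT box is written by its name, and it lies here on the other strand, as ATTGG. The E box is CACGTG.
Bex1, chrX:136215514-136215763, minus strand: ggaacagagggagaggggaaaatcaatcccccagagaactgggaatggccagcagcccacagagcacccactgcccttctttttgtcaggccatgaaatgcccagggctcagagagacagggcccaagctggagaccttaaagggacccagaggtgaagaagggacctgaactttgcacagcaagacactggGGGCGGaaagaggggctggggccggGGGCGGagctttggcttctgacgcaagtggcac
Bex4, chrX:136138746-136138995, plus strand: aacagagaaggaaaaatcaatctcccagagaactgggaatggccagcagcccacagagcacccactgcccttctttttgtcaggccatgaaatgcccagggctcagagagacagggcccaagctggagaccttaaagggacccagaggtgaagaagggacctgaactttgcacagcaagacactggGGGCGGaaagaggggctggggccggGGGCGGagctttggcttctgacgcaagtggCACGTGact
Bex2, chrX:136068237-136068486, minus strand: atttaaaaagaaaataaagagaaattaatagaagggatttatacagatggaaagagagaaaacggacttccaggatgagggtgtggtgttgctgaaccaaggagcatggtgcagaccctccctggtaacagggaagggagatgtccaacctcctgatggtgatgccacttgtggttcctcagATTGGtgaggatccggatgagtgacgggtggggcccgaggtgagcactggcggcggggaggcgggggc
Bex3, chrX:136270003-136270252, plus strand: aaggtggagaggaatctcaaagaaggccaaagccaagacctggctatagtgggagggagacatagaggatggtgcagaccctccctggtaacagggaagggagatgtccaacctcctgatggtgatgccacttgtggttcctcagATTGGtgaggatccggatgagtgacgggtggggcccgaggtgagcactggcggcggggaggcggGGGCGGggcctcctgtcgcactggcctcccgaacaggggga

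The Bex1 and Bex4 promoters were alike over 241 of 244 aligned bases (98.8%), with an unbroken run of 221 identical bases. Those of Bex2 and Bex3 were alike over 179 of 206 aligned bases (86.9%), with a run of 145. Across the pairs the longest identical run was 8 or 9 bases. Within these windows GGGCGG was found before Bex1, Bex3 and Bex4, CCAAT before Bex2 and Bex3, and CACGTG before Bex4 alone. The Bex1 window ends at CAC, where the matching stretch of Bex4 goes on to CACGTG. The Bex2 window likewise ends at GGGC, where that of Bex3 goes on to GGGCGG. Both absences thus lie at the end of a window, and bases past the starts were not read for motifs. Over 32851 promoters of that length, 32.7% held GGGCGG, 33.8% held CCAAT and 6.02% held CACGTG on either strand, so the first and second are common letters. The promoters held 4 (Bex1), 7 (Bex2), 9 (Bex3) and 5 (Bex4) CpG sites, where the median promoter held 6. Methylation and histone marks at these promoters were not analysed here.

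Because the libraries read the 3′ end of transcripts, likeness of the last bases decides which reads the members can share. Over whole transcripts Bex1 and Bex2 were 85.2% identical, Bex2 and Bex3 77.4%, Bex1 and Bex4 75.9%, and the remaining pairs 66.4% to 68.6%. Within the last 500 bases only Bex1 and Bex2 shared words of 50 bases, 65 of 451, and their longest shared run was 108 bases. Bex4 shared no such word with another member but up to 115 with Gm12245 on chromosome 11 and Gm4322 on chromosome 1, processed pseudogenes that the matrices did not list. Reads of Bex1 and Bex2 could in part be ambiguous, and how many UMIs were lost or moved that way was not measured. Tceal7 overlaps Bex1 on the opposite strand, and whether counting used strand was not stated, but Tceal7 had 0 UMIs in every ENR-organoid and -VE-organoid library and 6, 15 and 16 in the Hyper-organoid libraries, beside 16354 to 29553 UMIs of Bex1.

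Bex4 was close to absent from ENR-organoids and well expressed in Hyper-organoids. It had 2, 6 and 6 UMIs in ENR-organoid libraries 1 to 3 (0.0206, 0.0488 and 0.0673 CPM), 12 in each -VE-organoid library (0.0985 and 0.0706 CPM), and 26616, 40635 and 22599 UMIs in Hyper-organoid libraries 1 to 3 (192.2, 285.8 and 250.4 CPM). Every Hyper-organoid library lay far above every other organoid library, with library 1, at passage 1, the lowest of the 3. The means were 0.0456 ± 0.0235 (SD, n = 3), 0.0845 ± 0.0197 (n = 2) and 242.8 ± 47.3 CPM (n = 3). In the edgeR fit across 16037 genes the log2 difference was 12.23 (SE 0.28) from ENR-organoids and 11.37 (SE 0.31) from -VE-organoids. With so few UMIs on the low side, the ratio of pooled levels between Hyper-organoids and ENR-organoids, 5350.7, had a 95% counting interval of 3188.9 to 9787.5.

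**Figure D1:**
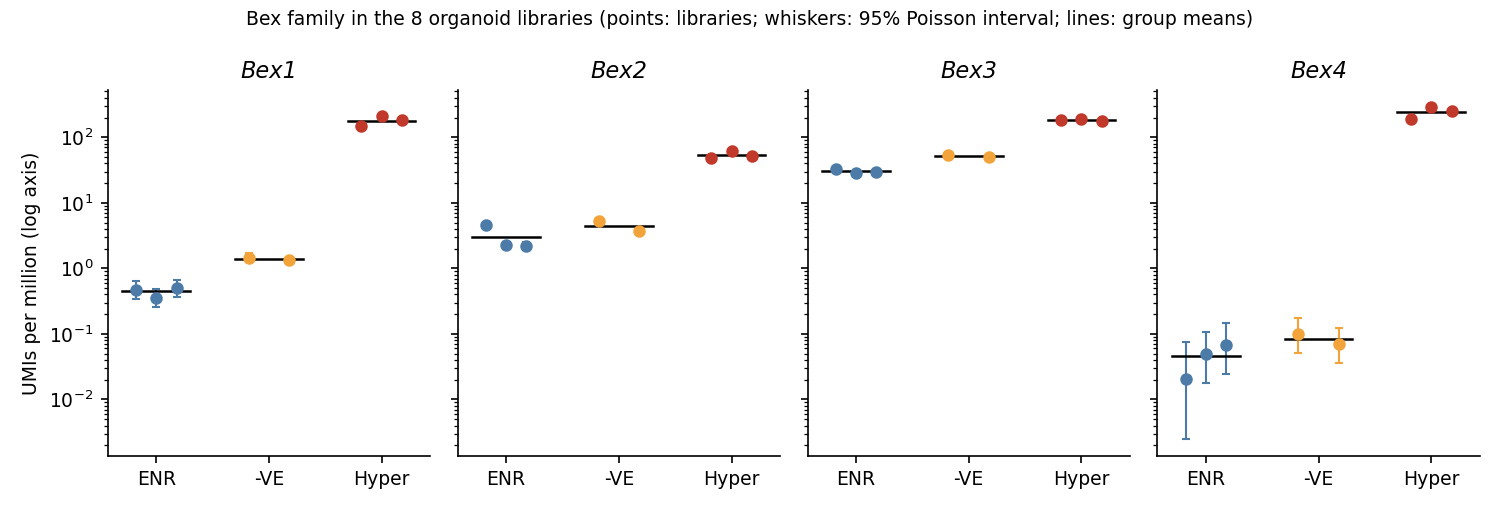
Level of each Bex gene in the 8 organoid libraries, in CPM on a log10 axis, with a point per library, whiskers for the 95% Poisson interval and a line at the group mean. The Hyper-organoid points of all 4 genes sit above every ENR-organoid and -VE-organoid point, with the widest distance for Bex4 (192.2 to 285.8 against at most 0.0985 CPM) and the narrowest for Bex3 (178.5 to 189.9 against at most 53.6 CPM).

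Bex1 rose from a trace to a high level. It stood at 0.473, 0.358 and 0.505 CPM in ENR-organoids, 1.46 and 1.32 CPM in -VE-organoids, and 150.2, 207.9 and 181.2 CPM in Hyper-organoids. The 3 groups did not overlap. The log2 excess of Hyper-organoids was 8.55 over ENR-organoids (SE 0.19, edgeR adjusted p = 1.56e-07) and 6.88 over -VE-organoids (SE 0.20, edgeR adjusted p = 1.64e-06).

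Bex2 began from a low level, 4.54, 2.26 and 2.22 CPM in ENR-organoids and 5.28 and 3.68 CPM in -VE-organoids, and reached 47.9, 60.9 and 51.0 CPM in Hyper-organoids. ENR-organoid library 1 stood above the other two and overlapped with the -VE-organoids, while all Hyper-organoid libraries were higher than any of these. The log2 difference was 4.03 from ENR-organoids (SE 0.28, edgeR adjusted p = 1.53e-05) and 3.44 from -VE-organoids (SE 0.32, edgeR adjusted p = 0.000145).

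Bex3 was the member already well expressed without the Hyper medium, at 33.3, 28.7 and 29.6 CPM in ENR-organoids and 53.6 and 49.7 CPM in -VE-organoids, against 182.5, 189.9 and 178.5 CPM in Hyper-organoids. Its libraries lay close together within each group, and the groups formed 3 separate levels. Hyper-organoids were higher than ENR-organoids by 2.46 (SE 0.06, edgeR adjusted p = 2.65e-07) and than -VE-organoids by 1.69 (SE 0.07, edgeR adjusted p = 5.52e-06).

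Bex1, Bex2 and Bex3 were thus called higher in Hyper-organoids in both comparisons, a call being an adjusted p under 0.05 with at least a 2-fold change. Of all 16037 genes 18.2% were called higher against ENR-organoids and 16.1% against -VE-organoids. Groups with every Hyper-organoid library above every library of the other group occurred for 40.0% of genes against ENR-organoids and 43.8% against -VE-organoids, so the separation of the points alone is common here.

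Without VPA and EPZ6438 the family stayed far below its Hyper-organoid levels. Between -VE-organoids and ENR-organoids Bex1 had a log2 difference of 1.67 (SE 0.20, edgeR adjusted p = 0.0046) and was called higher, where 1.35% of genes were. The libraries of the groups were separate for Bex1, Bex3 and Bex4, as they were for 21.4% of genes. Bex3 passed the test at 0.77 (SE 0.07, edgeR adjusted p = 0.00193) but stayed under 2-fold. Bex2 differed by 0.59 (SE 0.30, edgeR adjusted p = 0.27) and did not pass, but it passed without enteroendocrine cells at 1.91 (edgeR adjusted p = 0.00199) and without ENR-organoid library 1 at 0.99 (edgeR adjusted p = 0.0455). The Bex1 difference was 2.65 in stem cells alone (edgeR adjusted p = 0.104) and -0.46 in enteroendocrine cells alone. Bex4 differed by 0.86 (SE 0.59, edgeR adjusted p = 0.429), on 24 UMIs against 14, so a difference was not detectable at this depth. Neither inhibitor was tested alone in these libraries, so their shares cannot be told apart.

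The rise was spread over most cells. In Hyper-organoid libraries 1 to 3, 88.7%, 97.0% and 95.6% of cells had at least 1 UMI of Bex4, where 0.0914% to 0.213% of ENR-organoid cells and 0.28% to 0.502% of -VE-organoid cells did. Positive Hyper-organoid cells carried a median of 9, 11 and 11 UMIs of it. For Bex1 the shares were 84.5%, 93.0% and 91.0% in Hyper-organoids against 1.00% to 1.15% in ENR-organoids, for Bex2 65.1% to 69.8% against 2.21% to 3.88%, and for Bex3 95.2% to 97.5% against 46.0% to 52.4%. These shares did not overlap for any member, and for how many of all genes this holds was not counted. By CPM, every Hyper-organoid library lay above every ENR-organoid library for 40.0% of genes. An exact two-sided permutation test of the shares of Bex1, Bex2 and Bex3 gave p = 0.1 (adjusted 0.1) for each, which is the smallest p that 3 libraries against 3 allow.

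Thinning every cell to 10000 UMIs, which left out 93 to 187 cells of an ENR-organoid library and 63 to 113 of a Hyper-organoid library, narrowed the gaps of Bex1, Bex2 and Bex4 and widened that of Bex3. The mean share in Hyper-organoids and ENR-organoids was then 83.1% and 0.0717% for Bex4, 71.6% and 0.553% for Bex1, 34.7% and 2.01% for Bex2, and 79.7% and 22.4% for Bex3. RNA free in the droplets bears on such shares and was not measured. The matrices listed only 4524, 5757 and 3926 barcodes in Hyper-organoid libraries 1 to 3. Those not kept as cells may therefore not be empty droplets, and their levels are no measure of free RNA. They held Bex4 at 41.9, 63.1 and 47.0 CPM, below the kept cells of the same libraries in each case. Enterocytes were the class with the lowest level. In Hyper-organoid libraries 2 and 3 they had a Bex4 UMI in 41.4% and 47.6% of cells, at median depths of 42736 and 52853 UMIs. Stem cells of the same libraries had one in 98.4% and 96.6% at 33335 and 40306 UMIs.

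Most Hyper-organoid cells held UMIs of several members, which the high share of cells with each gene largely fixes. UMIs of all 4 genes were found in 55.2%, 66.1% and 60.1% of Hyper-organoid cells, in at most 0.0426% of ENR-organoid cells and in at most 0.0233% of -VE-organoid cells. At 10000 UMIs per cell the Hyper-organoid shares were 15.9%, 24.7% and 20.4%. None of the 4 was seen in 0.818% to 1.16% of Hyper-organoid cells, against 46.7% to 53.3% of ENR-organoid cells.

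**Figure D2:**
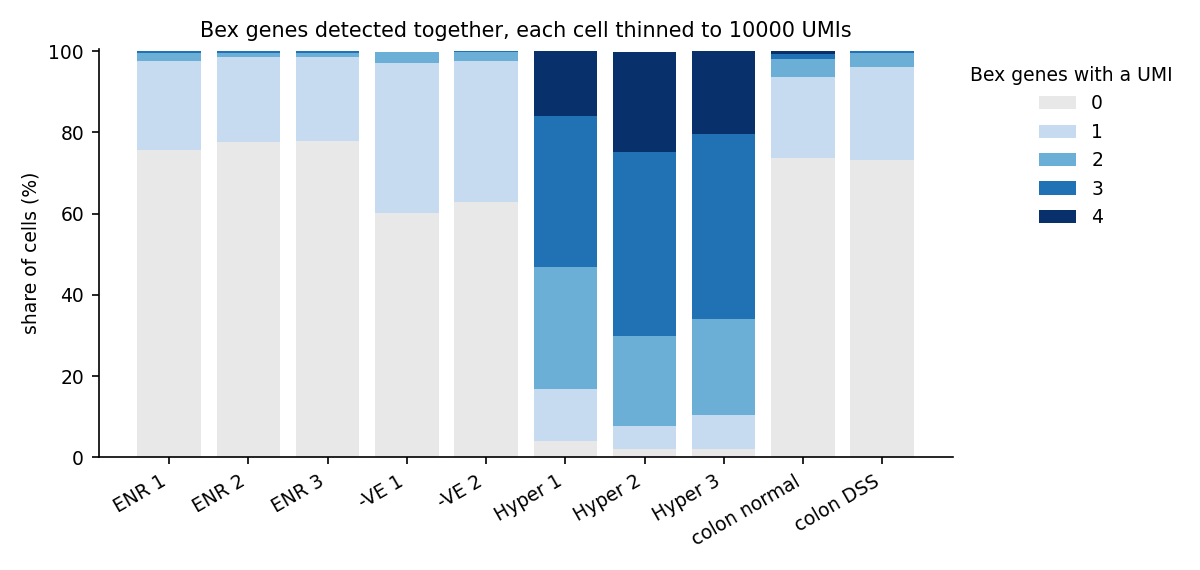
Share of cells, in percent, with a UMI of 0, 1, 2, 3 or all 4 Bex genes after thinning each cell to 10000 UMIs, stacked for each of the 10 libraries. In ENR-organoids at least 75.8% of cells hold none, and in Hyper-organoids 1.94% to 4.11% hold none and 15.9% to 24.7% hold all 4.

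Cells of Hyper-organoids without a Bex4 UMI numbered 317 of 2812 (11.3%), 107 of 3523 (3.04%) and 88 of 1983 (4.44%) in libraries 1 to 3. Library 1 thus had the most, at a median of 39514 UMIs in those cells. Among stem and transit amplifying cells with at least 10000 UMIs, 217 in library 1 had no Bex4 UMI, and these held Bex1 at 62.8 CPM (95% counting interval 58.0 to 67.9) and Bex3 at 149.4 CPM (141.9 to 157.2). Their 2264 Bex4-positive counterparts held Bex1 at 155.6 CPM (153.3 to 157.8) and Bex3 at 184.2 CPM (181.8 to 186.7). In libraries 2 and 3 such cells were few, 29 and 25, with Bex1 at 52.3 and 65.8 CPM against 208.9 and 183.5 CPM in the positive cells, and Bex3 at 72.8 and 83.8 against 189.6 and 176.9 CPM. Bex2 stood at 22.8, 9.1 and 18.9 CPM in the cells without Bex4 and at 42.5, 53.5 and 41.0 CPM in the others, in libraries 1 to 3. All of the other members were lower where Bex4 was not seen. The split uses the counts of Bex4, by which the family was chosen, and is a description. Cells without it were also shallower, at medians of 44632, 29498 and 41480 UMIs against 50339, 40381 and 46719 in libraries 1 to 3. Barcodes not kept as cells held Bex1 at 31.2, 47.1 and 35.6 CPM, Bex2 at 9.06, 15.1 and 10.7 CPM and Bex3 at 56.7, 59.3 and 47.8 CPM in libraries 1 to 3. In library 2 all of these lay within the counting intervals of the 29 cells (38.3 to 69.8, 3.93 to 17.9 and 56.1 to 93.0 CPM). In libraries 1 and 3 all of these lay below the counting intervals of the cells without Bex4. These counting intervals treat UMIs as independent and give no spread between cultures.

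Because the genes are X-linked and libraries of series 2 and 6 mixed the sexes, levels were also read by the sex transcripts of the cell. In Hyper-organoid library 1 Bex4 stood at 197.1 CPM (194.2 to 200.0) in cells with Xist only and 182.9 CPM (178.3 to 187.5) in cells with Y-linked transcripts only. In library 2 the order was the other way, 278.2 and 300.4 CPM. Bex1 followed the same pattern, 155.9 and 139.7 CPM in library 1 and 202.2 and 220.1 CPM in library 2. The high level was thus present in cells of either kind.

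The deposited cell classes show where the family is expressed without the Hyper medium. In ENR-organoids Bex2 and Bex3 were highest in the enteroendocrine class, at 217.5 ± 79.5 and 355.4 ± 36.4 CPM (SD, n = 3), against 0.754 and 35.7 CPM in the stem class. The enteroendocrine class gave 1.09% to 1.32% of the UMIs of an ENR-organoid library but 85.3% to 90.2% of its Bex2, 53.3% to 73.9% of its Bex1 and 12.9% to 15.7% of its Bex3. Bex1 was 24.0 CPM in that class, 5.44 CPM in Paneth cells, which secrete antimicrobial peptides, and 0.2 CPM in stem cells. Bex3 was 2.59 CPM in enterocytes, the absorptive cells. Of the 14 Bex4 UMIs in ENR-organoids, 7 were in enteroendocrine cells (1.96 CPM). In -VE-organoids enteroendocrine cells held 0 Bex4 UMIs in both libraries. Bex2 stood at 239.6 ± 58.0 and Bex3 at 253.4 ± 55.9 CPM in the enteroendocrine class (SD, n = 2), and Bex1 at 16.4 CPM there, 13.6 CPM in Paneth cells and 0.988 CPM in stem cells. The classes were drawn from the same cells, so differences between them are descriptions.

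In Hyper-organoids the family was high in nearly every class. Bex4 stood at 240.1 ± 50.0 CPM in stem cells, 255.1 in transit amplifying cells, 212.7 in goblet cells and 180.2 ± 47.2 in enteroendocrine cells (SD, n = 3). Among these classes transit amplifying cells stood highest, then stem, goblet and enteroendocrine cells, in each of the 3 libraries, which spread more widely than neighbouring classes did. The small revival stem class had at least 20 cells only in library 3, with Bex4 at 190.0 CPM. In library 2 it gave 0.546% of the Bex4 UMIs and 0.468% of all UMIs. Bex1 was 167.0 ± 25.1 CPM in stem, 188.1 in transit amplifying, 198.1 in goblet and 265.3 ± 33.9 in enteroendocrine cells. Bex2 kept its peak in the enteroendocrine class, 454.1 ± 84.9 CPM against 39.3 ± 6.76 in stem cells, and so did Bex3, 398.7 ± 53.9 against 168.0 ± 8.54. Enterocytes were low for all 4, with 30.5 CPM of Bex4, 17.9 of Bex1, 3.8 of Bex2 and 34.2 of Bex3 as means of the 2 libraries with at least 20 such cells. The enterocyte level of Bex4 in those libraries, at most 35.9 CPM, was below that of the barcodes not kept as cells, 63.1 and 47.0 CPM. Those barcodes are no measure of free RNA.

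**Figure D3:**
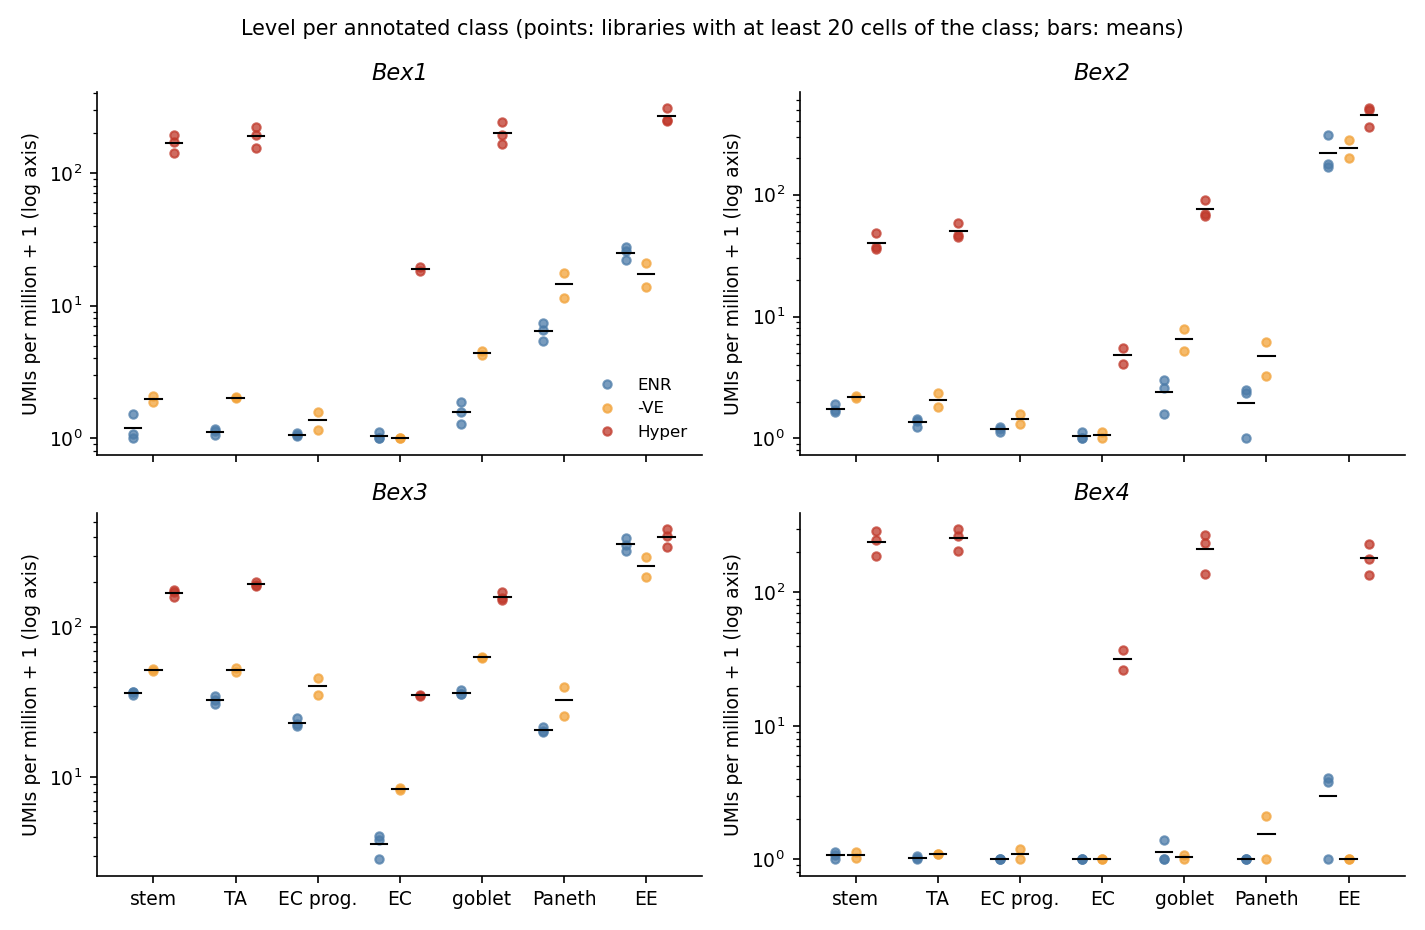
Level of each Bex gene by deposited cell class and group, in CPM + 1 on a log axis, with a point per library with at least 20 cells of the class and a bar at the group mean (TA, transit amplifying, EC, enterocyte, EC prog., enterocyte progenitor, EE, enteroendocrine). In ENR-organoids Bex2 and Bex3 peak in the enteroendocrine class, and in Hyper-organoids the stem, transit amplifying and goblet classes reach 158.8 to 255.1 CPM of Bex1, Bex3 and Bex4 while enterocytes stay lower.

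The stem class held the stem cell gene Lgr5 at 88.3 to 111.0 CPM in ENR-organoids and 121.8 to 163.5 CPM in Hyper-organoids, but Lgr5 did not mark it alone, since transit amplifying cells held 67.1 to 78.8 and 124.1 to 160.1 CPM. Read within the stem class, Hyper-organoids exceeded ENR-organoids by 9.95 for Bex1, 5.64 for Bex2 and 2.12 for Bex3 on the log2 scale, all called, where 15.2% of genes were called higher in that class. Bex4 differed by 11.75. The Bex1 and Bex4 values rest on 5 and 2 UMIs over the ENR-organoid stem cells, so their size depends on the prior count of the fit. The class difference of Bex1 given next depends on it too. Within the enteroendocrine class the differences were 3.54 for Bex1 (edgeR adjusted p = 1.24e-06) and 1.14 for Bex2 (edgeR adjusted p = 0.00616), both called where 5.96% of genes were. Bex3 did not pass there, at 0.24 (edgeR adjusted p = 0.337). Bex4 differed by 6.59 there, with 7 UMIs in the ENR-organoid cells.

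The log2 effect of the Hyper medium on Bex1, Bex2 and Bex3 was smaller in enteroendocrine than in stem cells when the difference itself was tested, in a test added after seeing the data. On the log2 scale it was lower in enteroendocrine cells by 6.41 for Bex1, 4.56 for Bex2 and 1.94 for Bex3 against ENR-organoids, with edgeR adjusted p of 1.69e-07, 1.51e-08 and 3.57e-07, in a fit where 10.9% of 13211 genes passed in either direction. Against -VE-organoids all 3 were also lower in enteroendocrine cells (4.37% of genes passed), and between -VE-organoids and ENR-organoids Bex1 and Bex3 were (0.280% passed). The ratio of enteroendocrine to stem level of Bex3 within a library was 10.8, 8.88 and 10.2 in ENR-organoids and 2.0, 2.56 and 2.57 in Hyper-organoids. For Bex2 it was 443.4, 256.9 and 192.7 against 9.84, 10.8 and 14.3. Bex4 had ratios of 0.72, 0.799 and 0.718 in Hyper-organoids, below 1 in each. In mean CPM, Bex1 went from 24.0 in ENR-organoids to 265.3 in Hyper-organoids in enteroendocrine cells, and from 0.2 to 167.0 in stem cells. Bex2 went from 217.5 to 454.1 and from 0.754 to 39.3, so both rose by more CPM in enteroendocrine cells. Bex3 went from 355.4 to 398.7 and from 35.7 to 168.0, a larger rise in stem cells. Without enteroendocrine cells in the libraries, log2 differences from ENR-organoids were 10.04 for Bex1, 6.86 for Bex2, 2.63 for Bex3 and 13.19 for Bex4. With these cells they were 8.55, 4.03, 2.46 and 12.23, so all 4 were larger without them. For Bex4, by which the family was chosen, this rests on 14 UMIs in ENR-organoids, 7 of them in enteroendocrine cells.

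Enteroendocrine cells were also read by Neurog3, the factor of their precursors, and Chga, a granule gene of the mature cells. In ENR-organoids the 43 cells with Neurog3 but no Chga held Bex2 at 12.1 ± 12.5 CPM and Bex3 at 66.2 ± 7.77 CPM (SD, n = 3 libraries) and no UMI of Bex1 or Bex4, and the 86 with Chga but no Neurog3 held Bex2 at 316.2 ± 68.9 and Bex3 at 548.1 ± 105.2 CPM. Bex1 was 38.8 ± 13.3 CPM in the latter, so all of these stood higher in the Chga-positive cells. In Hyper-organoids the 65 cells with Neurog3 alone already held Bex1 at 139.8 (116.9 to 166.5), Bex2 at 252.6 ± 40.4 and Bex4 at 89.6 ± 7.3 CPM, with Bex3 at 157.3 ± 11.3 CPM. Cells with Chga alone, 102 in number, held Bex1 at 370.7 ± 88.7, Bex2 at 574.4 ± 82.1, Bex4 at 250.3 ± 106.5 and Bex3 at 576.3 ± 125.6 CPM. The order of the 2 kinds of cells was the same in both media for Bex1, Bex2 and Bex3, and in Hyper-organoids Bex4 followed it too.

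The kin of the family were higher in Hyper-organoids too. Of the 8 other Bex and Tceal genes, Bex6 (at most 0.0361 CPM in any organoid library) and Tceal6 were too low to test, and the other 6 were tested. Tceal3 and Tceal7, with 0 UMIs in every ENR-organoid and -VE-organoid library, passed the filter only through the Hyper-organoid libraries and had to differ. Tceal5, at 0.0163 to 0.0765 CPM in those libraries, also passed only in that way. The 3 genes that remained were all called higher in Hyper-organoids than in ENR-organoids and than in -VE-organoids, where 13.3% and 11.5% of the genes passing the filter without the Hyper-organoid libraries were (18.2% and 16.1% of all genes tested). Tceal8, which lies inside the Bex cluster, went from 0.113, 0.179 and 0.101 CPM in ENR-organoids to 51.1, 53.4 and 51.5 CPM in Hyper-organoids, a log2 difference of 8.45 (edgeR adjusted p = 6.9e-07). Tceal9, also inside it, was already at 60.9 to 74.4 CPM in ENR-organoids and was higher by 1.95 (edgeR adjusted p = 4.87e-06). Tceal3 and Tceal7 had 50 and 37 UMIs over the 3 Hyper-organoid libraries, at least 13.9-fold and 10.3-fold higher against a floor of 3 UMIs over the group. Between -VE-organoids and ENR-organoids 1 of the 3, Tceal8, was called (1.64, edgeR adjusted p = 0.0415), where 1.35% of all genes were.

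The stretch of chromosome around the cluster holds these 6 kin genes as well. Within 1 Mb of the cluster 14 of 23 other tested genes (60.9%) were called higher in Hyper-organoids than in ENR-organoids, against 125 of 466 (26.8%) on the rest of the X chromosome and 17.8% on the other chromosomes. Without the kin it was 8 of 17 (47.1%). Against -VE-organoids the shares were 65.2% (52.9% without the kin), 24.9% and 15.8%, and between -VE-organoids and ENR-organoids 13.0% (11.8%), 1.29% and 1.33%. These counts hold 9 genes that passed the filter only through the Hyper-organoid libraries. Of the 14 others 6 (42.9%) were called higher in each Hyper-organoid comparison, and without the kin 3 of 11 (27.3%). Of all genes that passed the filter without those libraries 13.3% and 11.5% were. That share was not computed for the rest of the X chromosome. Over all its tested genes, however they passed the filter, it was 26.8% and 24.9%. Counted in that way the window without the kin had 47.1% and 52.9%. Of 16 tested genes on a list of X-linked neighbours, 10 of which lie in that window, 10 were called higher and 0 lower than in ENR-organoids (12 and 0 against -VE-organoids, and 3 and 0 between -VE-organoids and ENR-organoids), among them Arxes2, one of a pair of near-identical genes first described in fat cells (9.83 from ENR-organoids). Of these 16, 6 passed the filter only through the Hyper-organoid libraries, and of the 10 others 5 were called higher than in ENR-organoids and 6 than in -VE-organoids. The armadillo-repeat gene Armcx6, which passed only in that way, went from 0 to 0.0337 CPM in ENR-organoids to 3.02 to 3.53 CPM in Hyper-organoids. Arxes1 and Armcx2, also among the genes that passed only in that way, were at 0 to 0.0112 CPM in ENR-organoids and at 6.98 to 13.8 and 2.06 to 3.75 CPM in Hyper-organoids. The span was chosen around members known to be high, and no test of the enrichment was made.

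**Figure D4:**
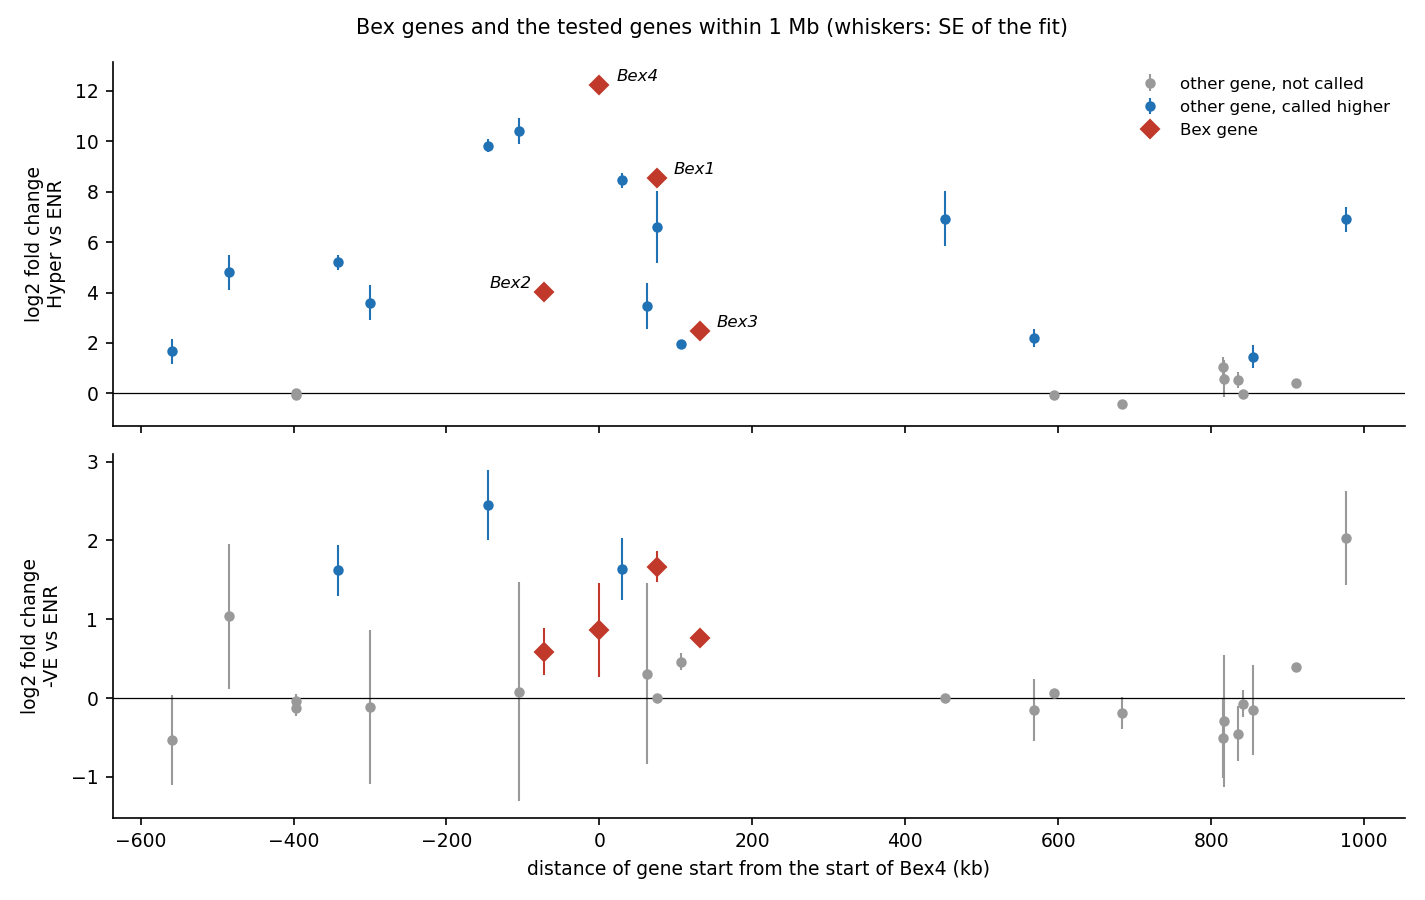
Fitted log2 difference between Hyper-organoids and ENR-organoids (upper panel) and between -VE-organoids and ENR-organoids (lower panel) for the Bex genes and the 23 other tested genes within 1 Mb, against the distance of their start from that of Bex4 in kb, with whiskers for the SE. In the upper panel Bex1, Bex2, Bex3 and 14 others stand above 0 as called higher. Bex4, by which the family was chosen, stands at 12.23 and carries no call. The points of Tceal3 and Tceal7 rest on 0 UMIs in ENR-organoids, so their height depends on the prior count. Of the 23, 9 passed the filter only through Hyper-organoids.

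Of 8 tested genes for known partners of Bex proteins 1 was called higher in Hyper-organoids than in ENR-organoids, Lmo2, a LIM-domain transcription regulator (0.0337 to 0.0514 CPM in ENR-organoids, 1.39 to 2.63 CPM in Hyper-organoids), which passed the filter only through the latter, and 0 were lower, beside 18.2% called higher among all genes. Fem1b stayed at 26.0 to 31.9 CPM in every organoid library, and Ngfr was at most 0.0578 CPM. The counts for marker lists, against the same 18.2% called higher and 4.75% called lower among all genes, were as follows. The list for enteric neurons and glia had 2 of 5 tested genes called higher, Elavl4 (1.11 to 1.74 CPM in Hyper-organoids) and Uchl1 (2.71 to 4.38 CPM), while Sox10, a defining gene of glia, was at most 0.0332 CPM. The stromal list had 2 of 3 called higher, Col1a1 at 0.343 to 0.485 CPM and Pdgfra at 0.0997 to 0.267 CPM in Hyper-organoids. Both passed the filter only through those libraries. The immune list had 0 of 3, and the tuft cell list 1 higher (Pou2f3) and 1 lower (Avil) of 4. In the enteroendocrine list 1 of 12 was higher, Neurog3 (log2 difference 1.43), and 2 were lower, Gcg (-7.48) and Cck (-1.93). Against -VE-organoids 16.1% of genes were called higher and 2.51% lower. There the enteroendocrine list had 4 higher, Sst (8.95), Pcsk1 (1.34), Chga (1.21) and Neurog3 (1.02), and 1 lower, Gcg (-6.27), of 12. The tuft cell list had 0 higher and 1 lower (Avil) of 4, and the other lists the same counts as against ENR-organoids. The part of these cell types in the result was not tested.

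Over 50 points of class by library, the genes whose log2 levels ran most like those of each member were Zfhx4, a zinc finger homeobox factor (r = 0.977), Arxes2 (0.97) and Tceal8 (0.97) for Bex4. For Bex1 they were Tesc, a calcium-binding protein gene (0.966), Amotl1 (0.947) and Tceal8 (0.946). Bex2 ran most like Dtx3, a ubiquitin ligase gene (0.973), Klc3, a kinesin light chain (0.972), and Cd1d1, which presents lipid antigens (0.972), and Bex3 most like Tmem9 (0.959), Impdh1 (0.954) and Prkacb (0.948). Among the members r was 0.91 for Bex1 with Bex4, 0.896 for Bex2 with Bex3, 0.859 for Bex1 with Bex2, and 0.628 to 0.786 for the others. Other genes were more like a member than the rest of the family was, Bex4 being the 15th most alike gene for Bex1 and Bex3 the 134th for Bex2. The points share libraries, depth and medium, and the correlations are descriptions.

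In the colon each condition had 1 library, so intervals cover counting error only and no test was made. Bex4 stood at 8.84 CPM in the normal colon (95% Poisson interval 7.58 to 10.2, 176 UMIs) and 1.33 CPM after DSS (0.961 to 1.79, 43 UMIs), a ratio of 0.15 (0.105 to 0.211). Bex1 was also lower after DSS, 4.29 against 6.53 CPM (ratio 0.657, 0.514 to 0.841), Bex2 was higher, 7.19 against 4.52 CPM (1.59, 1.24 to 2.05), and Bex3 was nearly level, 36.9 against 41.6 CPM (0.888, 0.812 to 0.971). Over whole libraries the members thus did not move together, and none came near its Hyper-organoid level. Single clusters reached higher levels, as given below. Without the 6 of 25 clusters in which over 50% of cells held Ptprc, the leukocyte gene, the ratios were 0.153 for Bex4, 0.67 for Bex1, 1.65 for Bex2 and 0.916 (0.832 to 1.01) for Bex3. The libraries also differed in sex transcripts, so sex and treatment cannot be told apart.

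By deposited cluster, Bex4 in the colon was highest in cluster 16, whose cells held Chga at 13047.9 CPM in the normal colon and 15093.3 CPM after DSS, with 167.1 CPM of Bex4 in 16 normal cells and 49.1 CPM in 43 DSS cells. In cluster 2, named for stem cells in the deposited annotation, it was 29.7 and 4.67 CPM, in the Muc2-rich cluster 5 11.8 and 0.29 CPM, and in cluster 13 30.5 and 1.53 CPM. It was lower after DSS in each of these. Bex2 was higher after DSS in clusters 5 (4.14 and 25.8 CPM) and 13 (4.13 and 19.8 CPM) but not in cluster 2 (7.72 and 2.33 CPM). Bex1 was 122.1 and 94.7 CPM in cluster 16, 19.5 and 21.3 CPM in cluster 2, and 32.2 and 3.05 CPM in cluster 13. Bex3 was 250.7 and 364.6 CPM in cluster 16 and also high in cluster 0, where 88.4% of cells held Ptprc, at 173.3 and 121.7 CPM. Bex2 was 263.5 and 192.8 CPM in cluster 16. Among clusters with at least 10 cells in both libraries the Chga-rich one was thus the highest for every member. The enteroendocrine class was the highest for Bex1, Bex2 and Bex3 in each ENR-organoid library, and for Bex4 in libraries 2 and 3 (4 and 3 UMIs) but not in library 1 (0 UMIs).

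**Figure D5:**
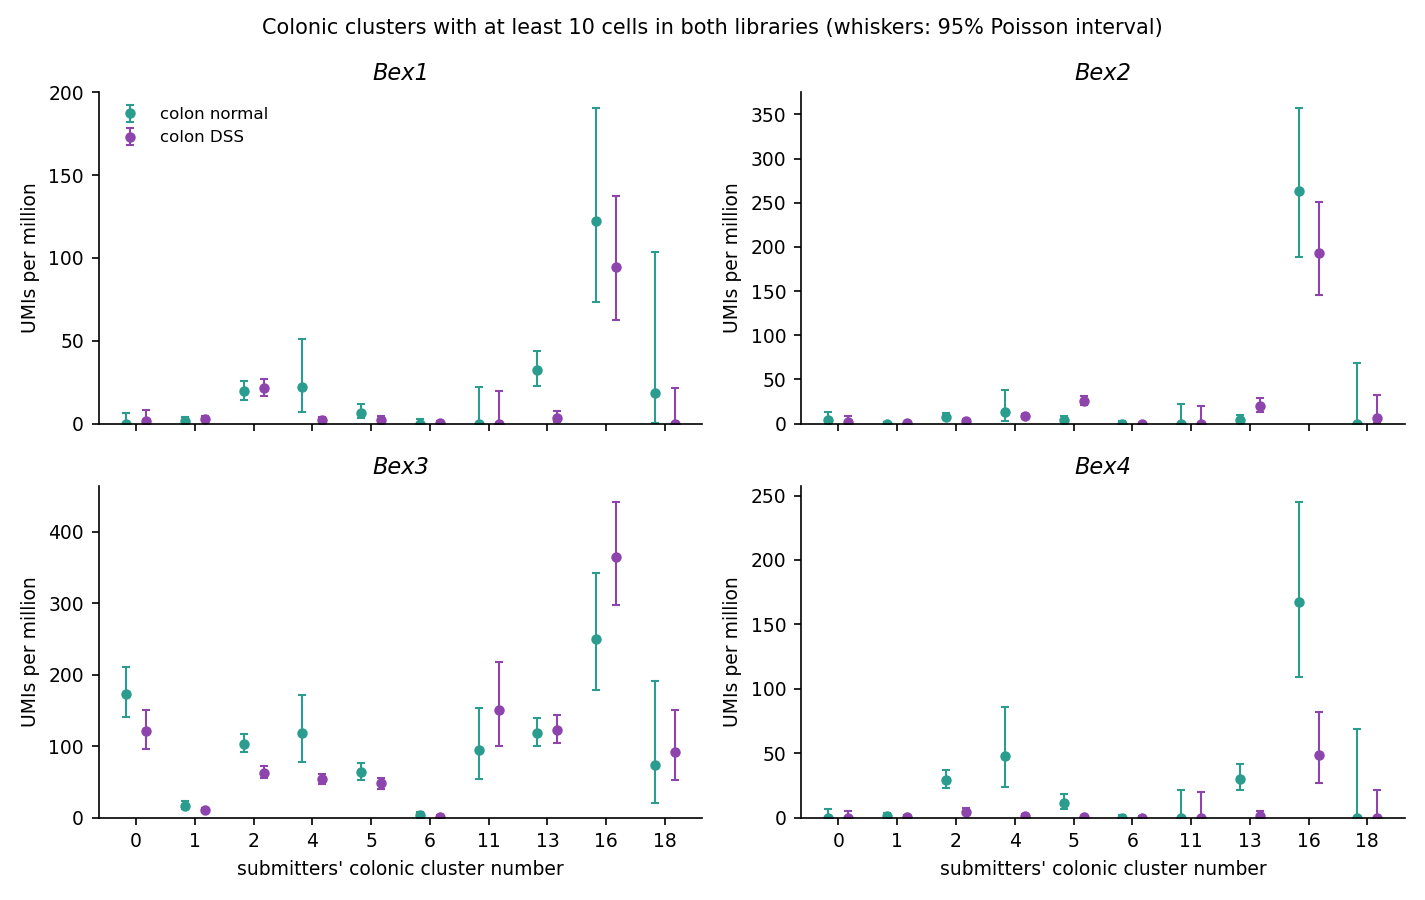
Level of each Bex gene, in CPM, by deposited cluster of the normal and the DSS colon, for clusters with at least 10 cells in both, with a point per library and whiskers for the 95% Poisson interval. Cluster 16, rich in Chga, is the highest point of every panel (for Bex4 167.1 and 49.1 CPM), and the normal point of Bex4 lies above the DSS point in clusters 1, 2, 4, 5, 13 and 16, with overlapping whiskers in cluster 1.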

How the data were processed

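The counts analysed were UMI counts per gene and barcode of 10x Genomics 3′ libraries, which per the labels and methods the authors aligned to mm10 with Cell Ranger (3.0.0 in the processing notes, 3.1.0 in the matrix headers) and deposited unnormalised. Cells and their classes were those of the deposited annotation, made by the authors with Seurat 3.1.4. The stated minimum of 1500 genes per cell does not match the kept cells, which go down to 501 genes. No doublet caller was run here, and strand use in counting is not given in the sources used here. Members and lists were chosen with earlier results of these data known.

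UMIs were summed per library over kept cells (89124015 to 170019527 per organoid library). The 8 organoid libraries entered 1 edgeR 4.0.16 quasi-likelihood fit (R 4.3.3, TMM scaling, default filter, 16037 genes tested), with Benjamini-Hochberg adjustment over all genes. Levels are CPM over kept cells, and log2 differences come from the fit. The differences between enteroendocrine and stem cells were tested in an edgeR fit of both classes with an interaction term and a term for each library, which pairs the classes within a library. Genes passing the filter only through Hyper-organoids are those that failed it on the ENR-organoid and -VE-organoid libraries alone. Intervals are exact Poisson or binomial at 95% and cover counting error only. The fit was also tested on counts simulated from its own means and dispersions. Named genes included the members, up to 4 called genes per list with the largest change from ENR-organoids, Bex6, Ngfr and Fem1b. They also included the 3 most alike genes per member (log2 of CPM + 1, genes of at least 5 CPM) and markers. Tceal9 and marker list genes called against -VE-organoids were named besides. Culture series pairs the libraries: deviations from group means correlated between ENR-organoids and Hyper-organoids of a series at 0.192, 0.170 and 0.436 over genes. Promoters of all 4 members were matched by symbol.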

Additional observations from a re-analysis of the deposited data

Results flagged for a closer look

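The effect of the medium on the Bex genes differed between enteroendocrine and stem cells, by a test of the difference itself that was added after seeing the data. On the log2 scale, the Hyper-organoid minus ENR-organoid difference in enteroendocrine cells less that in stem cells was -6.41 for Bex1 (SE 0.44, edgeR adjusted p = 1.69e-07), -4.56 for Bex2 (SE 0.26, edgeR adjusted p = 1.51e-08) and -1.94 for Bex3 (SE 0.14, edgeR adjusted p = 3.57e-07). Against -VE-organoids it was -3.27 for Bex1 (SE 0.34, edgeR adjusted p = 1.51e-05), -4.03 for Bex2 (SE 0.22, edgeR adjusted p = 1.21e-08) and -0.97 for Bex3 (SE 0.15, edgeR adjusted p = 0.00105), in a comparison where 4.37% of genes passed. Between -VE-organoids and ENR-organoids it was -3.14 for Bex1 (SE 0.62, edgeR adjusted p = 0.0472) and -0.96 for Bex3 (SE 0.16, edgeR adjusted p = 0.0155), where 0.280% of genes passed. The values of Bex1 against ENR-organoids rest on 5 UMIs in their stem cells, so their size depends on the prior count of the fit. These genes were already higher in enteroendocrine than in stem cells of ENR-organoids.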

How the results depend on the processing

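Of 321 alternative values, 284 kept their direction and side of the threshold or, where no test was made, moved by less than the spread between libraries (in the colon, within the counting interval, and counts of genes by less than 1.5 times), and some of the rest also kept their direction. In all 114 alternative fits of Bex1, Bex2 and Bex3 in a Hyper-organoid comparison the difference stayed positive. All 15 results stayed the same by these rules under each of several alternatives. These were the replicate block for culture series, DESeq2 1.42.0, RLE scaling, no filter on low counts and a minimum of 1500 genes per cell. No tested member changed its side of the threshold in them. The numbers of genes called did move, such as from 409 to 562 between -VE-organoids and ENR-organoids with DESeq2. With the replicate block the log2 differences from ENR-organoids were 8.54 for Bex1, 4.09 for Bex2, 2.46 for Bex3 and 12.24 for Bex4, and 3780, 3063 and 439 genes were called in Hyper-organoids against ENR-organoids, Hyper-organoids against -VE-organoids and -VE-organoids against ENR-organoids, beside 3675, 2985 and 409 without it.

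Fits on 1 class moved more, and those on transit amplifying, goblet and enteroendocrine cells were added after seeing the data. In enteroendocrine cells Bex1 between -VE-organoids and ENR-organoids was -0.46, Bex2 between Hyper-organoids and -VE-organoids 0.90 (edgeR adjusted p = 0.061), Bex3 0.24 from ENR-organoids (0.337), 0.63 from -VE-organoids (0.0558) and -0.39 between -VE-organoids and ENR-organoids, and Bex4 6.59 from ENR-organoids and -4.74 between -VE-organoids and ENR-organoids. Goblet cells gave 10.07 for Bex4 from ENR-organoids, and 1.98 for Bex2 (edgeR adjusted p = 0.0256) and -1.41 for Bex4 between -VE-organoids and ENR-organoids. Transit amplifying cells gave 13.27 for Bex4 from ENR-organoids and 1.56 for Bex2 between -VE-organoids and ENR-organoids (edgeR adjusted p = 0.0392), and stem cells 2.65 for Bex1 in the latter comparison (edgeR adjusted p = 0.104). Without enteroendocrine cells Bex4 was 13.19 from ENR-organoids and Bex2 1.91 between -VE-organoids and ENR-organoids (edgeR adjusted p = 0.00199). The genes called were 818 (enteroendocrine) and 1563 (goblet) against ENR-organoids, 443 and 1156 against -VE-organoids, and between -VE-organoids and ENR-organoids 21, 133, 70 (stem), 150 (transit amplifying) and 669 (all barcodes). Bex4 had 7 UMIs in enteroendocrine, 2 in goblet and 3 in transit amplifying cells of ENR-organoids, and 0, 1 and 16 in those of -VE-organoids. The sizes of its differences in these classes therefore depend on the prior count of the fit. Fewer cells and genes enter the fits on 1 class, and the other causes were not tested.

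Leaving out each library in turn gave log2 differences from ENR-organoids of 8.39 to 8.68 for Bex1, 3.85 to 4.43 for Bex2, 2.42 to 2.51 for Bex3 and 11.90 to 12.58 for Bex4. From -VE-organoids they were 6.77 to 7.00, 3.21 to 3.73, 1.65 to 1.77 and 11.13 to 11.61, and between -VE-organoids and ENR-organoids 1.51 to 1.78, 0.30 to 0.99, 0.70 to 0.82 and 0.53 to 1.19. Without ENR-organoid library 1 Bex2 passed in the last comparison at 0.99 (edgeR adjusted p = 0.0455). Genes called ranged over 3384 to 3806, 2218 to 2977 and 96 to 519. The last comparison fell from 409 to 96 without -VE-organoid library 2, which leaves 1 -VE-organoid library assumed to vary like the other groups, and to 252, 151 and 232 without ENR-organoid libraries 1, 2 and 3. The gap in share of cells between Hyper-organoids and ENR-organoids was 71.0, 32.7, 57.3 and 83.0 percentage points for Bex1 to Bex4 after thinning, and 82.3, 45.8, 61.8 and 89.0 with at least 2 UMIs required, beside 88.5, 63.8, 46.7 and 93.6. Levels of Bex4 in ENR-organoids and -VE-organoids rest on at most 12 UMIs per library, and the colon has 1 library per condition.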
